A study of Mus musculus with 15 samples.

Results

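MHC class I antigen processing was followed in the mouse heart through 10 genes: the heavy chains H2-K1 and H2-D1, their light chain B2m, the peptide transport and loading genes Tap1, Tap2 and Tapbp, the immunoproteasome subunits Psmb8, Psmb9 and Psmb10, and the transactivator Nlrc5. They were taken by name from a list of class I, peptide transport and immunoproteasome genes, across all 5 groups of the study. All 10 were among the 17447 genes of the deposited count table, and all 10 passed the filter on low counts that left 13021 genes for testing.

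The study asked whether renalase, a secreted flavoprotein encoded by Rnls, limits thickening and scarring of the heart in chronic kidney disease (CKD). Messenger RNA of heart tissue was sequenced from 15 male C57BL/6J mice, 3 in each of 5 groups, that were 6 to 8 weeks old when the experiment began, and every heart was taken 18 weeks after surgery. WTsham mice were wild type and had the operation with no kidney tissue removed. WTCKD mice were wild type, had most of their kidney mass removed and received the vector in week 2, while WTCKD+RNLS mice had the same surgery and received AAV9-cTnT-RNLS in that week. KOCKD and KOCKD+RNLS mice were the matching groups with vector or virus, and both lacked Rnls through a TALEN lesion in exon 4. The cardiac troponin T (cTnT) promoter limits expression of the delivered gene to cardiomyocytes, no library of a knockout sham heart was analysed here, and no vector is described for the sham mice. The wild-type mice came from another source than the knockout line. The methods name a pair of sequencing instruments with different read lengths, and which library ran on which was not given, so instrument and group cannot be told apart.

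The total counts per library ran from 10480788 to 13424078, with a median of 12011453. The WTsham totals were 12222947, 12669724 and 13107066 counts, and the WTCKD totals were 11717701, 10480788 and 11989839 counts. The WTCKD+RNLS totals were 12205920, 11644580 and 13424078 counts. The KOCKD totals were 11339223, 10953142 and 12205537 counts, and the KOCKD+RNLS totals were 12281869, 12011453 and 10570211 counts. Levels are given below as CPM, which is counts scaled by library size with TMM factors, with libraries in the order of their replicate number.

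Class I molecules carry peptides from inside the cell to its surface, where CD8 T cells and natural killer cells read them. The proteasome cuts proteins into peptides, the immunoproteasome subunits change which peptides it makes, the TAP transporter moves them into the endoplasmic reticulum, and tapasin holds an empty heavy chain with B2m at the transporter until a peptide binds. In the heart, resting cardiomyocytes show little class I on their surface, endothelial cells and macrophages carry more, and interferon gamma raises the whole pathway through IRF1 and NLRC5. In bulk RNA from heart tissue, fewer cells of a type and less RNA per cell cannot be told apart.

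Among the libraries, WTsham 2 had the highest level of all 10 genes. Each library is left out in turn in the comparisons below, WTsham 2 among them. Over the genes with enough counts in a pair other libraries stood apart: in chi-square of the counts per gene, WTsham 1 was at 19.8 and 20.5 from WTsham 2 and WTsham 3, which were at 9.08 from each other, and WTCKD+RNLS 2 was at 21.5 and 19.6 from the other libraries of its group, which were at 9.02, and at 13.96 from KOCKD 2. KOCKD+RNLS 1 stood apart from its group in Wdfy1, a gene singled out with its values known: it held 91 Wdfy1 counts, where KOCKD+RNLS 2 and 3 held 289 and 302, the KOCKD libraries held 221, 197 and 224, and the 9 wild-type libraries held 61 to 110. Gm2423, singled out the same way, had 54, 130 and 143 counts in KOCKD, 8, 11 and 7 counts in KOCKD+RNLS, and 0 to 14 counts in the wild-type libraries. Rnls and the class I gene H2-L were not analysed here, so the genotype of a library was not checked on Rnls itself. Nnt was present in every library, at 560.5 to 1092 CPM.

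Heart identity was clear in every library. The 8 cardiomyocyte markers together reached 87330 CPM in the lowest library and 119100 CPM in the highest, and Myh6, the cardiac alpha myosin heavy chain, was the most abundant at a mean of 38870 CPM. The 8 T cell markers together held only 1.84 to 6.69 CPM, and the 5 natural killer cell markers 0.167 to 3.31 CPM. Nkg7 was at 0 counts in 2 libraries, Ncr1 in 8 and Cd3d in 6, and no natural killer cell marker and 1 T cell marker passed the filter.

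Per kilobase of length, B2m was by far the most abundant of the 10, with a mean level of 477 FPKM over the 15 libraries. H2-D1 averaged 163 FPKM and H2-K1 99.0 FPKM, so the heavy chains and their light chain held the top places. Tapbp averaged 40.2 FPKM, Psmb10 35.8 FPKM, Tap2 18.7 FPKM and Psmb8 14.9 FPKM. Tap1 and Psmb9 were close to each other at mean levels of 7.78 and 7.73 FPKM, and Nlrc5 was the lowest at 1.36 FPKM.

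WTsham was the group with the highest mean in all 10 genes. The lowest group was KOCKD+RNLS for H2-K1, H2-D1 and Psmb8, and WTCKD+RNLS for the other 7. The ratio of the highest to the lowest group mean was 3.77 for Nlrc5 and 3.51 for Tap1 and went down to 1.40 for Tapbp. Without WTsham 2 it was 2.91 for Nlrc5, 2.28 for Tap1, 2.325 for Psmb9 and 1.30 for Tapbp, with Psmb10 the lowest at 1.24. In the test for any difference among the 5 groups, 9 of the 10 genes passed an adjusted p under 0.05 in edgeR, with Psmb10 at 0.0765, and 22.2% of all tested genes passed. Without WTsham 2, 7 of the 10 passed.

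B2m, the light chain shared by all classical class I molecules, stood at 497, 819.6 and 525 CPM in WTsham, 386, 478 and 307 CPM in WTCKD and 284, 282 and 239 CPM in WTCKD+RNLS. The knockout hearts had 363, 573 and 449 CPM in KOCKD and 328, 246 and 326 CPM in KOCKD+RNLS. Each virus group lay wholly below its vector group, and each WTsham library lay above every WTCKD library.

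H2-D1, a classical heavy chain, had 344, 540.4 and 392.1 CPM in WTsham, 274, 316 and 235 CPM in WTCKD and 259.8, 196 and 187 CPM in WTCKD+RNLS. It had 258, 331 and 273 CPM in KOCKD and 216, 173 and 216 CPM in KOCKD+RNLS. The knockout groups with and without virus were apart, while the highest WTCKD+RNLS library reached into the WTCKD range. H2-K1, the other classical heavy chain, had 233, 456 and 314 CPM in WTsham, 184, 232 and 166 CPM in WTCKD and 189, 144 and 161 CPM in WTCKD+RNLS. H2-K1 in the knockout hearts was at 170.2, 244 and 236 CPM in KOCKD and 124.7, 95.7 and 196 CPM in KOCKD+RNLS. The lowest WTsham library, at 232.6 CPM, was only just above the highest WTCKD library, at 232.3 CPM, and both pairs of virus and vector groups overlapped.

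Tap1, a chain of the peptide transporter, had 22.7, 80.4 and 38.5 CPM in WTsham, 15.6, 20.2 and 12.3 CPM in WTCKD and 14.9, 10.5 and 14.8 CPM in WTCKD+RNLS. Tap1 stood at 15.1, 21.3 and 21.3 CPM in KOCKD and 15.03, 14.3 and 12.9 CPM in KOCKD+RNLS. WTsham 2 alone held more Tap1 than any other library by a wide margin, and WTsham 1 was close to the top of the CKD groups. Tap2, the other chain, moved less: it had 51.1, 75.8 and 55.0 CPM in WTsham, 42.6, 42.2 and 48.0 CPM in WTCKD and 46.2, 36.4 and 38.6 CPM in WTCKD+RNLS. Tap2 was at 38.8, 48.2 and 48.5 CPM in KOCKD and 41.4, 38.3 and 43.4 CPM in KOCKD+RNLS, and the 4 CKD groups overlapped. Tapbp, which encodes tapasin, had 124, 154 and 127 CPM in WTsham, 117, 113 and 104 CPM in WTCKD and 99.0, 99.99 and 90.5 CPM in WTCKD+RNLS. Tapbp was at 111, 112 and 111 CPM in KOCKD and 92.0, 105 and 96.8 CPM in KOCKD+RNLS. Its libraries were tight within groups, and each virus group lay below its vector group without overlap.

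Psmb8, the immunoproteasome counterpart of Psmb5, had 23.9, 43.4 and 27.6 CPM in WTsham, 13.5, 21.1 and 12.2 CPM in WTCKD and 13.2, 12.3 and 13.9 CPM in WTCKD+RNLS. Psmb8 was at 14.3, 16.8 and 20.7 CPM in KOCKD and 13.6, 12.4 and 12.9 CPM in KOCKD+RNLS. WTCKD 2 was the highest Psmb8 library among the CKD hearts, and the wild-type virus and vector groups overlapped. Psmb9, the counterpart of Psmb6, had 9.67, 20.1 and 15.3 CPM in WTsham, 8.12, 8.17 and 7.06 CPM in WTCKD and 4.92, 5.76 and 5.44 CPM in WTCKD+RNLS. Psmb9 was at 7.70, 7.55 and 7.98 CPM in KOCKD and 7.15, 5.79 and 6.93 CPM in KOCKD+RNLS. All 3 WTCKD+RNLS libraries were below every WTCKD library. Psmb10, the counterpart of Psmb7, had 39.7, 70.9 and 54.8 CPM in WTsham, 40.1, 37.0 and 43.6 CPM in WTCKD and 33.0, 41.8 and 39.6 CPM in WTCKD+RNLS. Psmb10 was at 48.7, 47.3 and 45.1 CPM in KOCKD and 43.7, 47.2 and 47.2 CPM in KOCKD+RNLS. WTsham 1 lay inside the range of the CKD libraries.

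Nlrc5, the transactivator that drives class I promoters, had 18.1, 32.5 and 16.3 CPM in WTsham, 7.61, 11.3 and 6.47 CPM in WTCKD and 8.18, 2.97 and 6.58 CPM in WTCKD+RNLS. Nlrc5 was at 3.94, 9.04 and 9.67 CPM in KOCKD and 9.51, 9.84 and 7.96 CPM in KOCKD+RNLS. The sham hearts were all above the CKD hearts, WTCKD+RNLS 2 was the lowest library, and the 4 CKD groups overlapped.

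**Figure D1:**
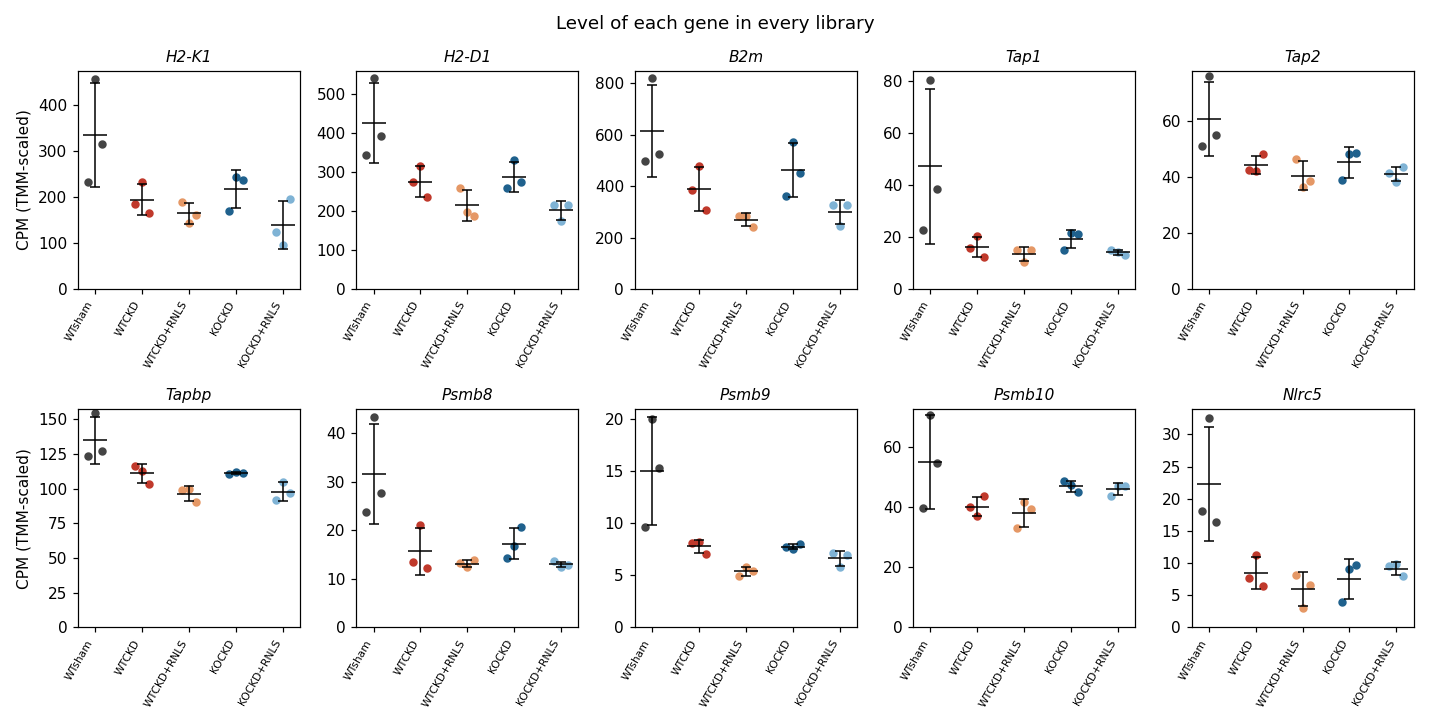
Levels of the 10 class I genes in CPM, with a point for each of the 15 libraries and a bar with its SD at each group mean. WTsham 2 is the highest library in all 10 genes.

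The comparison of WTCKD with WTsham asked what CKD surgery with vector changed in the wild-type heart. All 10 class I genes had lower means in WTCKD, and 4 of them fell past the test: Tap1, Psmb8, Psmb9 and Nlrc5. The direction here, and in every comparison with WTsham, rests on the group labels of the libraries. Whether the WTsham and WTCKD labels are as intended was not checked on other data. Tap1 was at 0.339 and Nlrc5 at 0.378 of the sham level as fitted folds, and Psmb8 and Psmb9 were at 0.493 and 0.517. The 4 of 10 called genes stood against 2.30% of all tested genes called in either direction and 1.70% called lower. Called means an adjusted p under 0.05 by the edgeR quasi-likelihood test and the Benjamini-Hochberg method over 13021 genes. The 10 genes and all lists were chosen with earlier results of these data known. Counts set beside such shares, here and below, are therefore a description and no independent support.

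The heavy chains and B2m did not pass this test. H2-K1 had a log2 fold change of -0.78 (SE 0.249, adjusted p 0.110), H2-D1 a log2 fold change of -0.63 (SE 0.168, adjusted p 0.0610) and B2m a log2 fold change of -0.655 (SE 0.202, adjusted p 0.101). In the transport group, Tap1 fell with a log2 fold change of -1.56 (SE 0.328, adjusted p 0.0193), and Tap2 and Tapbp had lower means with log2 fold changes of -0.45 and -0.28 and adjusted p of 0.0969 and 0.110. In the immunoproteasome, Psmb8 fell with a log2 fold change of -1.02 (SE 0.217, adjusted p 0.0201) and Psmb9 with a log2 fold change of -0.95 (SE 0.201, adjusted p 0.0198), and Psmb10 did not pass at -0.45 and 0.128. Nlrc5 fell with a log2 fold change of -1.40 (SE 0.345, adjusted p 0.0439).

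The median log2 fold change of the 10 genes was -0.72, and that of all tested genes was -0.0053. In 9 of the 10 genes every WTCKD library was below every WTsham library, Psmb10 being the exception, where 12.2% of all tested genes had that order. All 10 had an unadjusted p under 0.05, against 17.6% of all genes, and DESeq2 called 5 of them. Under the threshold of the study, a lower limit on the fold change with an unadjusted p under 0.05, 9 of the 10 were lower, against 7.63% of all genes. The count of called genes rested on single libraries: it was 0 without WTsham 2, 0 without WTCKD 1, 0 without WTCKD 3, 2 without WTCKD 2, 3 without WTsham 3 and 8 without WTsham 1. It was also 0 when only the 6 libraries of this comparison were fitted. Without WTsham 2 the log2 fold changes were -0.935 for Tap1, -0.72 for Psmb8, -0.69 for Psmb9 and -1.03 for Nlrc5, all still below 0. Over the 6 fits that each leave out 1 library, the adjusted p ran from 0.000731 to 0.0937 for Tap1, from 0.00710 to 0.105 for Psmb8, from 0.000588 to 0.0933 for Psmb9 and from 0.0338 to 0.168 for Nlrc5. In those fits the log2 fold change of H2-K1 ran from -0.99 to -0.50 and that of H2-D1 from -0.76 to -0.42. B2m ran from -0.82 to -0.39, Tap2 from -0.56 to -0.26, Tapbp from -0.34 to -0.17 and Psmb10 from -0.64 to -0.23.

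The comparison of WTCKD+RNLS with WTCKD asked what cardiac renalase changed in wild-type CKD hearts. All 10 genes again had lower means in the treated group, and none of the 10 passed the test. B2m had the largest difference, a log2 fold change of -0.54 (SE 0.202, adjusted p 0.147), and Psmb9 had a log2 fold change of -0.53 (SE 0.214, adjusted p 0.172). H2-D1 had a log2 fold change of -0.36 (SE 0.168, adjusted p 0.245) and H2-K1 a log2 fold change of -0.24 (SE 0.249, adjusted p 0.659). Tap1, Tap2 and Tapbp had log2 fold changes of -0.25, -0.13 and -0.20, Psmb8 and Psmb10 had -0.25 and -0.08, and Nlrc5 had -0.50. The median of the 10 was -0.25, beside 0.012 for all tested genes. The called count was 0 of 10 with edgeR and 0 with DESeq2, against 4.47% of all genes called and 2.28% called lower. At an unadjusted p under 0.05 the count was 4, namely H2-D1, B2m, Tapbp and Psmb9, against 20.2% of all genes. Under the threshold of the study, 3 were lower, namely H2-D1, B2m and Psmb9, against 8.09% of all genes. In B2m, Tapbp and Psmb9 every treated library was below every vector library, which is 3 of 10 against 10.8% of all genes. The 95% intervals of the log2 fold change ran from -0.97 to -0.11 for B2m and from -1.29 to 0.29 for Nlrc5, which is the span of differences left possible for each gene.

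The comparison of KOCKD+RNLS with KOCKD asked the same of knockout CKD hearts. H2-D1 and B2m fell, 9 of the 10 genes had lower means, and Nlrc5 had a higher mean. B2m had a log2 fold change of -0.62 (SE 0.202, adjusted p 0.0471), which is 0.650 of the KOCKD level, and H2-D1 had a log2 fold change of -0.51 (SE 0.169, adjusted p 0.0489), which is 0.701 of it. H2-K1, with a log2 fold change of -0.64 (SE 0.250, adjusted p 0.0895), was as far down as B2m and did not pass. The transport genes had log2 fold changes of -0.45 for Tap1, -0.14 for Tap2 and -0.19 for Tapbp, the immunoproteasome genes -0.41 for Psmb8, -0.23 for Psmb9 and -0.03 for Psmb10, and Nlrc5 0.27, none of them called.

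The 2 called genes of 10 stood against 16.1% of all genes called and 7.04% called lower in this comparison. Under the threshold of the study 3 genes were lower, H2-K1, H2-D1 and B2m, against 10.1% of all genes, and 3 of the 10 had an unadjusted p under 0.05, against 31.6% of all genes. In 6 of the 10, namely H2-D1, B2m, Tap1, Tapbp, Psmb8 and Psmb9, every treated library was below every vector library, against 20.0% of all genes. The median of the 10 was -0.32, beside -0.0094 for all tested genes. Both calls were close to the threshold. DESeq2 called only H2-D1, and a fit with offsets that remove the trend of counts on gene length called 0, with log2 fold changes of -0.29 for B2m and -0.34 for H2-D1. In that fit Psmb9 and Psmb10 turned sign, to log2 fold changes of 0.0457 and 0.212. The count of called genes was 1 without KOCKD 1 or without KOCKD+RNLS 3, and 0 without KOCKD 2, without KOCKD 3, without KOCKD+RNLS 2 or without KOCKD+RNLS 1, the library with the low Wdfy1 count. Over those fits the adjusted p ran from 0.0313 to 0.212 for B2m and from 0.0565 to 0.193 for H2-D1.

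The effect of the virus was not shown to differ between the genotypes for any of the 10 genes. In the test of the difference, knockout effect minus wild-type effect, edgeR called 0 of 10 and 0% of all genes, DESeq2 called 0 of 10, and none of the 10 had an unadjusted p under 0.05, against 17.6% of all genes. The difference on the log2 scale was -0.08 for B2m, with a 95% interval of -0.69 to 0.52, and -0.15 for H2-D1, with -0.66 to 0.35. It was lowest for H2-K1 at -0.41, with -1.15 to 0.34, and highest for Nlrc5 at 0.77, with -0.33 to 1.87 and an adjusted p of 0.463. For Tap2 it was -0.01, with -0.42 to 0.41. The median of the 10 differences was -0.045, beside 0.013 for all tested genes.

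The comparison of KOCKD with WTCKD asked what the loss of Rnls changed in vector-treated CKD hearts. The class I genes of the genotypes lay close together, with 8 higher and 2 lower means in the knockout. Tap1 had the highest log2 fold change, 0.26, with a 95% interval of -0.45 to 0.97, and Nlrc5 the lowest, -0.16, with -0.93 to 0.62. B2m was at 0.24, with -0.18 to 0.67, and Psmb10 at 0.22, with -0.10 to 0.55. Tapbp had the narrowest interval, -0.18 to 0.19, around 0.01, and its sign turned with DESeq2. The edgeR count of called genes was 0 of 10, and 0% of all genes passed. DESeq2 called 0 of the 10, and 0 of the 10 had an unadjusted p under 0.05, where 10.1% of all genes did. Psmb10 was the 1 gene whose KOCKD libraries were all above every WTCKD library, against 9.84% of all genes. The median of the 10 was 0.11, beside -0.0047 for all tested genes. WTCKD serves both here and in the wild-type comparisons, so these contrasts share libraries.

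The comparison of WTCKD+RNLS with WTsham set treated CKD hearts beside sham hearts and shares WTsham with the comparison above of WTCKD with WTsham. All 10 class I genes fell, by the widest margin in Nlrc5 and Tap1, which were at 0.267 and 0.285 of the sham level, with log2 fold changes of -1.53 and -1.18 without WTsham 2, where Psmb9 had -1.22. B2m was at 0.437, H2-K1 at 0.492 and H2-D1 at 0.504 of the sham level, Psmb9 at 0.357, Psmb8 at 0.416 and Psmb10 at 0.691, and Tap2 and Tapbp at 0.666 and 0.715. The 10 of 10 stood against 7.69% of all genes called and 4.81% called lower, for genes chosen with earlier results of these data known. Their median log2 fold change was -1.11, beside 0.0045 for all tested genes.

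Among the heavy chains and B2m, H2-K1 had a log2 fold change of -1.02 (SE 0.250, adjusted p 0.0214), H2-D1 a log2 fold change of -0.99 (SE 0.169, adjusted p 0.00228) and B2m a log2 fold change of -1.19 (SE 0.204, adjusted p 0.00228). In the transport group, Tap1 had a log2 fold change of -1.81 (SE 0.331, adjusted p 0.00372), Tap2 a log2 fold change of -0.59 (SE 0.138, adjusted p 0.0173) and Tapbp a log2 fold change of -0.48 (SE 0.0892, adjusted p 0.00389). In the immunoproteasome, Psmb8 had a log2 fold change of -1.27 (SE 0.219, adjusted p 0.00252), Psmb9 a log2 fold change of -1.485 (SE 0.207, adjusted p 0.000626) and Psmb10 a log2 fold change of -0.53 (SE 0.151, adjusted p 0.0422). Nlrc5 had a log2 fold change of -1.90 (SE 0.355, adjusted p 0.00416). In all but Psmb10 every treated library was below every sham library, which is 9 of 10 against 11.9% of all genes. H2-K1, Tap2 and Psmb10 lost the call without WTsham 2, without WTCKD+RNLS 2 or without WTCKD+RNLS 3, and Psmb10 also without WTsham 3 or without WTCKD+RNLS 1, and in those fits 7 to 9 of the 10 were called. Without WTsham 2 their log2 fold changes were -0.73 for H2-K1, -0.39 for Tap2 and -0.31 for Psmb10. Over the fits that leave out 1 library the adjusted p ran from 0.00431 to 0.119 for H2-K1, from 0.00471 to 0.0961 for Tap2 and from 0.00115 to 0.234 for Psmb10.

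**Figure D2:**
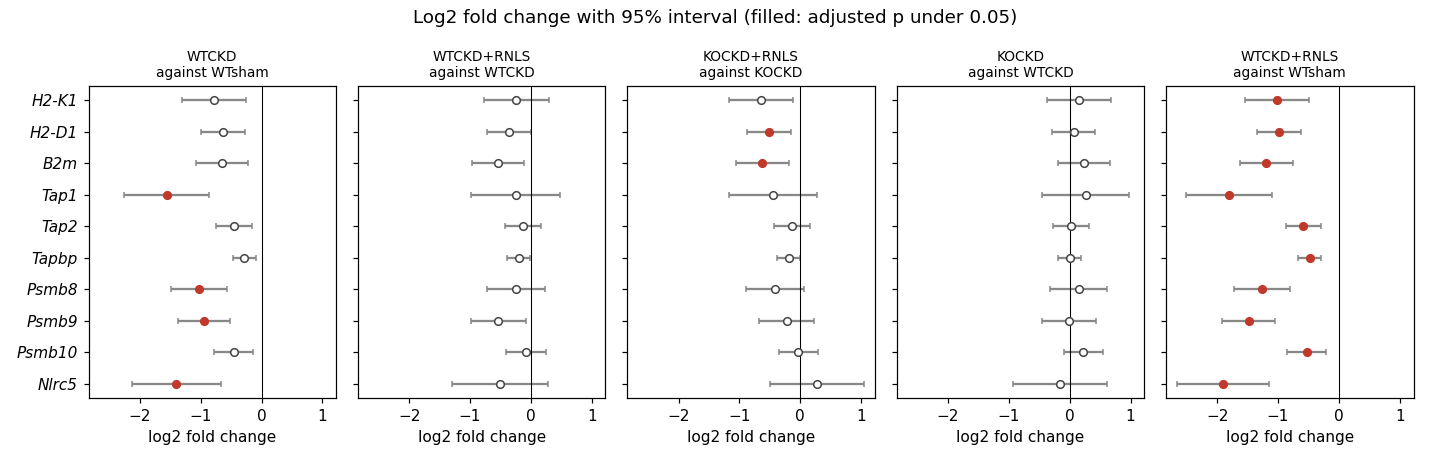
Fitted log2 fold changes of the 10 class I genes with 95% intervals, for each comparison, with filled points for an adjusted p under 0.05. All 10 intervals of WTCKD+RNLS against WTsham lie below 0, and 9 of 10 estimates of KOCKD+RNLS against KOCKD do.

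The immunoproteasome was also set against the constitutive subunits that it replaces, as the summed FPKM of Psmb8, Psmb9 and Psmb10 over that of Psmb5, Psmb6 and Psmb7. The ratio was 0.161, 0.3 and 0.228 in WTsham, 0.127, 0.147 and 0.127 in WTCKD and 0.116, 0.103 and 0.137 in WTCKD+RNLS. It was 0.145, 0.121 and 0.135 in KOCKD and 0.160, 0.166 and 0.168 in KOCKD+RNLS. WTsham 2 and WTsham 3 held the highest ratios, WTsham 1 lay among the KOCKD+RNLS libraries, and the KOCKD+RNLS libraries were above every KOCKD library. Of the single pairs of subunits only Psmb10 over Psmb7 kept those knockout groups apart, while Psmb8 over Psmb5 and Psmb9 over Psmb6 overlapped between them.

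The difference in the mean log2 ratio was -0.74 for WTCKD against WTsham and -0.92 for WTCKD+RNLS against WTsham. Each had p 0.1 in the exact two-sided permutation test, which is the smallest p that 3 against 3 libraries allow. The difference was -0.17 for WTCKD+RNLS against WTCKD with exact p 0.3, 0.31 for KOCKD+RNLS against KOCKD with exact p 0.1, and 0.0049 for KOCKD against WTCKD with exact p 1. After Benjamini-Hochberg adjustment over the 5 permutation tests the smallest p was 0.167, so no difference of the ratio passed. In KOCKD+RNLS the sum of the immunoproteasome subunits was 53.2 ± 1.253 FPKM (SD, n = 3) against 58.2 ± 2.13 FPKM in KOCKD, and the sum of the constitutive subunits was 322 ± 3.69 FPKM against 438 ± 37.8 FPKM. Psmb5, Psmb6 and Psmb7 each fell between these groups, with log2 fold changes of -0.39, -0.56 and -0.40 and edgeR adjusted p of 0.0255, 0.00614 and 0.0144. With gene length offsets only Psmb6 passed, at a log2 fold change of -0.28. Of these 3 genes, 1 was called without KOCKD 2 or without KOCKD+RNLS 2, and 2 without KOCKD 3, without KOCKD+RNLS 1 or without KOCKD+RNLS 3. In WTCKD against WTsham the constitutive subunits had 0 of 3 called by edgeR and by DESeq2, with log2 fold changes of 0.06 for Psmb5, 0.13 for Psmb6 and 0.10 for Psmb7.

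**Figure D3:**
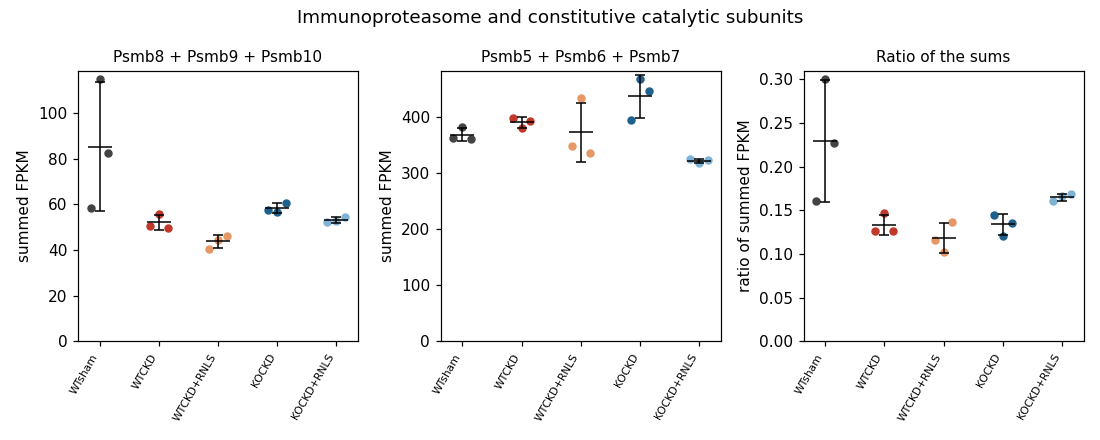
Ratio of immunoproteasome to constitutive catalytic subunits from summed FPKM, with a point for each library and a bar with its SD at each group mean. The WTsham libraries lie at 0.161, 0.3 and 0.228, and the KOCKD+RNLS libraries lie at 0.160, 0.166 and 0.168, above every KOCKD library, an order that only Psmb10 over Psmb7 had among the single pairs of subunits.

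The other genes of the pathway were counted by role, in lists chosen with earlier results of these data known. The counts below stand beside these shares of all genes called lower. They were 1.70% in WTCKD against WTsham, 2.28% in WTCKD+RNLS against WTCKD, 7.04% in KOCKD+RNLS against KOCKD and 4.81% in WTCKD+RNLS against WTsham. Called in either direction, the shares were 2.30%, 4.47%, 16.1% and 7.69%. Of the 10 tested among 24 other class I and class I-like heavy chains, 2 fell in WTCKD against WTsham, H2-T23 with a log2 fold change of -1.10 and H2-T24 with -1.56, and 5 fell in WTCKD+RNLS against WTsham. None of the 10 was called in either virus comparison, by edgeR or by DESeq2. H2-T23, the mouse counterpart of HLA-E, averaged 65.4 CPM in WTsham and 30.5 CPM in WTCKD. Without WTsham 2 or without WTCKD+RNLS 2 the count of 5 was 2.

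Of 7 peptide trimming and loading genes, 4 fell in WTCKD against WTsham: Hspa5 at -0.64, Lnpep at -0.74, Erap1 at -0.41 and Calr at -0.40 on the log2 scale. In KOCKD+RNLS against KOCKD, Calr fell by 0.39, Pdia3 by 0.34 and Hspa5 by 0.49 on the log2 scale, while Lnpep rose by 0.82. None of the 7 was called in WTCKD+RNLS against WTCKD, by edgeR or by DESeq2. Calr, the chaperone that holds the heavy chain next to tapasin, was among the called genes of WTCKD against WTsham and of KOCKD+RNLS against KOCKD. The count of 4 for CKD was 1 without WTsham 3, without WTCKD 1 or without WTCKD 3, and the count of 4 for the knockout was 1 with gene length offsets.

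Of 11 other core (20S) subunits, 0 were called in WTCKD against WTsham and in WTCKD+RNLS against WTCKD by edgeR and by DESeq2, and 8 fell in KOCKD+RNLS against KOCKD, Psmb4 with a log2 fold change of -0.46, Psma3 with -0.39, Psma6 with -0.36 and Psma2 with -0.34. That count of 8 was 0 with gene length offsets, 1 without KOCKD 2, without KOCKD 3, without KOCKD+RNLS 1 or without KOCKD+RNLS 2, and 2 without KOCKD+RNLS 3. Of 18 subunits of the 19S cap, 2 fell in the knockout comparison, Psmc2 at -0.34 and Psmd6 at -0.30, beside 7.04% of all genes called lower there, and the count was 0 or 1 in each fit without 1 of its libraries. The interferon-inducible activator subunits Psme1 and Psme2 had log2 fold changes of -0.03 and -0.42 in WTCKD against WTsham and were not called, and Psme2 fell at -0.48 in KOCKD+RNLS against KOCKD with an edgeR adjusted p of 0.0489. Of the 9 activators and assembly factors, Pomp, Psmg2 and Psme2 fell and Psme4 rose in that comparison, where 16.1% of all genes were called. The calls of the 4 came to 0 without KOCKD 2 or without KOCKD+RNLS 1, to 1 without KOCKD+RNLS 2, to 2 without KOCKD 3 or without KOCKD+RNLS 3, and to 0 with gene length offsets. Psme4 also rose at 0.34 in WTCKD+RNLS against WTCKD and lost the call in 4 of the 6 fits without 1 library.

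Of 14 transcription regulators of class I genes, 3 fell in WTCKD against WTsham, beside 1.70% of all genes called lower there. They were Stat2 at -1.885, Irf9 at -1.66 and Irf1 at -1.24 on the log2 scale. The median of the 14 was -0.07, with 5 higher and 9 lower means. Irf1, which binds class I promoters, had 34.8, 92.3 and 41.8 CPM in WTsham and 19.7 to 34.3 CPM elsewhere. All sham libraries were above all CKD libraries in Irf1 and WTsham 2 was the highest, and without WTsham 2 the log2 fold change was -0.69. Irf1 lost the call without WTCKD 1, WTCKD 2 or WTCKD 3. It was not called in a virus comparison, with -0.01 in wild type and -0.31 in knockout. Nfya rose at 0.40 in KOCKD+RNLS against KOCKD and lost the call in all 6 fits without 1 library.

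The interferon gamma receptor list held 7 genes, of which 6 were tested, with 0 called in WTCKD against WTsham by edgeR and 1 by DESeq2. Jak1 fell with a log2 fold change of -0.375 in WTCKD+RNLS against WTCKD, where the fits without 1 library gave 0 to 2 calls, and Jak2 rose with 0.38 in KOCKD+RNLS against KOCKD, a call lost without KOCKD+RNLS 1. All 14 tested interferon-inducible GTPases fell in WTCKD against WTsham, with a median log2 fold change of -2.01, and 13 of 14 fell in WTCKD+RNLS against WTsham. All 14 tested type I interferon response genes fell in both of those comparisons, with medians of -1.87 and -2.15, and Irf7 at -2.895 and -2.90. The median of all tested genes was -0.01 and 0.00 in the same comparisons. In the virus comparisons 0 GTPases were called by edgeR and by DESeq2, and of the response genes 0 were called in wild type while Ifit2 and Xaf1 rose at 0.80 and 1.06 in knockout hearts, with 0 to 2 calls over the fits without 1 library. Without WTsham 2 the CKD counts were 13 GTPases and 12 response genes. Fitted on the 6 compared libraries alone, the GTPase count for CKD was 2.

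Of 9 tested class II presentation genes, 0 were called in WTCKD against WTsham and in WTCKD+RNLS against WTCKD by edgeR and by DESeq2. H2-Aa and H2-Eb1 fell at -1.06 and -1.09 in KOCKD+RNLS against KOCKD, where 16.1% of all genes were called and 7.04% called lower. That count of 2 ran from 0 to 4 over the fits without 1 library. In WTCKD+RNLS against WTsham 4 genes fell, beside 4.81% of all genes called lower, a count that ran from 0 to 5.

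Markers of the cells that carry class I moved in some of the same comparisons, and their part in the class I results was not tested. The summed level of 10 endothelial markers was 1459, 1609 and 1475 CPM in WTsham, 1541, 1502 and 1679 CPM in WTCKD and 1172, 1064 and 1118 CPM in WTCKD+RNLS. It was 1466, 1541 and 1333 CPM in KOCKD and 1296, 1231 and 1250 CPM in KOCKD+RNLS, with Kdr the most abundant and no marker at 0 in any library. The sum was lower in every virus library than in every vector library of its genotype, and sham and WTCKD overlapped. Of the 10 markers, 0 were called in WTCKD against WTsham by edgeR and 2 by DESeq2, 5 fell in WTCKD+RNLS against WTCKD, among them Cldn5 at -2.77, Pecam1 at -0.55 and Cdh5 at -0.50, and 3 fell in KOCKD+RNLS against KOCKD, Cldn5 at -1.81, Esam at -0.38 and Pecam1 at -0.29. In WTCKD+RNLS against WTsham 6 of the 10 fell, beside 4.81% of all genes called lower there. Among these were Vwf at -1.70, Cldn5 at -1.65, Pecam1 at -0.51 and Tek at -0.36.

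The summed level of 10 macrophage markers was 573, 743 and 695 CPM in WTsham, 594, 587 and 438 CPM in WTCKD and 440.2, 405 and 407 CPM in WTCKD+RNLS. It was 472, 478 and 397 CPM in KOCKD and 389, 297 and 302 CPM in KOCKD+RNLS, with Lyz2 the most abundant and no marker at 0. Each KOCKD+RNLS library was below every KOCKD library, while WTCKD+RNLS 1 lay above WTCKD 3, so the wild-type groups overlapped. Fcgr1, an interferon-inducible Fc receptor, was the 1 macrophage marker called in WTCKD against WTsham, at -1.76, and 7 of 10 fell in WTCKD+RNLS against WTsham. In KOCKD+RNLS against KOCKD 2 of the 10 fell, Lyz2 at -0.77 and C1qa at -0.47, beside 7.04% of all genes called lower there. That count ran from 1 to 3 over the fits without 1 library. In WTCKD+RNLS against WTCKD 0 macrophage markers were called by edgeR and 2 by DESeq2. Their part in the lower B2m and H2-D1 was not tested.

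The summed level of 5 markers of all leukocytes was 68.2, 92.4 and 72.7 CPM in WTsham, 67.0, 59.2 and 48.8 CPM in WTCKD and 49.8, 41.0 and 41.0 CPM in WTCKD+RNLS. It was 42.5, 49.5 and 49.5 CPM in KOCKD and 37.5, 33.8 and 39.2 CPM in KOCKD+RNLS, with Laptm5 the most abundant and no marker at 0. Each virus library of the knockout was below every KOCKD library, and the sham libraries were above all others. Of the 5, 0 were called in WTCKD against WTsham and in WTCKD+RNLS against WTCKD by edgeR and 1 in each by DESeq2, 4 fell in WTCKD+RNLS against WTsham, 1 without WTsham 2, and Cd52 fell at -0.90 in KOCKD+RNLS against KOCKD, a call lost in 4 of the 6 fits without 1 library.

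The summed level of 8 cardiomyocyte markers was 97790, 87330 and 91300 CPM in WTsham, 95760, 89140 and 103200 CPM in WTCKD and 108500, 119100 and 111000 CPM in WTCKD+RNLS. It was 91440, 98440 and 91720 CPM in KOCKD and 104500, 101900 and 102200 CPM in KOCKD+RNLS. Each virus library was above every vector library of its genotype in this sum, 4 of 8 markers rose in WTCKD+RNLS against WTsham, 2 without WTsham 2 and 1 without WTsham 3, and Myh6 and Ryr2 rose in KOCKD+RNLS against KOCKD at 0.52 and 0.34, Ryr2 turning sign with gene length offsets and losing the call in 3 of the 6 fits without 1 library. The other 6 markers had lower means in that knockout comparison and were not called, and the median of the 8 was -0.08, so the higher sum there came mostly from Myh6. The part of this in the lower class I levels of virus-treated hearts was not tested.

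Of the other cell types, 0 of 3 tested dendritic cell markers, 0 of 1 T cell marker and 0 of 2 B cell markers were called by edgeR or by DESeq2 in any of the 5 pairwise comparisons. The fibroblast list had 2 of 6 called in WTCKD+RNLS against WTCKD, Col1a1 at -0.95 and Dpt at -0.72, both lost in 5 of the 6 fits without 1 library, and Col1a1 fell at -1.10 in KOCKD+RNLS against KOCKD. Among pericyte and smooth muscle markers Abcc9 rose at 0.46 in WTCKD+RNLS against WTCKD, a call lost in 4 of the 6 fits without 1 library, and at 0.62 in KOCKD+RNLS against KOCKD. Abcc9 was the only 1 of 7 called in each, so the list as a whole did not rise. In both comparisons 3 of the 7 had higher and 4 had lower means, with medians of -0.016 and -0.034. Myl4, Myl7 and Sln of the atrial list fell in KOCKD+RNLS against KOCKD, where the summed atrial level was 441, 116 and 2649 CPM in KOCKD and 151, 286 and 128 CPM in KOCKD+RNLS, and 0 were called without KOCKD 3 or without any of the KOCKD+RNLS libraries. That level was 148, 428 and 1147 CPM in WTsham, 1254, 2308 and 84.7 CPM in WTCKD and 122, 121 and 474 CPM in WTCKD+RNLS, so wild-type libraries stood apart in it too, and 0 of the 4 atrial genes were called there by edgeR or by DESeq2. All 5 tested genes of the red cell list had lower means in WTCKD than in WTsham, their median lying at -2.61 on the log2 scale, and 0 were called by edgeR, 2 by DESeq2 and 5 without WTsham 3. Hbb-bs of that list rose at 2.72 in WTCKD+RNLS against WTCKD and lost the call in all 6 fits without 1 library, and Fabp4 of the adipocyte list fell at -0.53 in KOCKD+RNLS against KOCKD, a call lost in 4 of the 6 fits without 1 library. The part of any of these in the class I levels was not tested.

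The 10 genes varied together across libraries, as a description with 15 points that share groups and library preparation. The 45 pairs had Pearson correlations of log2 CPM from 0.47 to 0.96, with a median of 0.85. Taken as deviations from the group means, they ran from -0.04 to 0.90, with a median of 0.62. Tap1 was most like the mean of the other 9, with r of 0.97, and Psmb10 least, with 0.65. Without the pair of libraries with the most extreme means, WTsham 2 and WTsham 3, Tap1 had 0.87 and B2m 0.92, whereas Psmb10 had -0.10, so its likeness rested on those libraries. Among the other 13011 tested genes, Iigp1, Parp10, Irgm2, Rsad2, Parp9, Lgals3bp and Igtp were among those most like the mean of the 10, with r from 0.94 down to 0.92 over 15 libraries and from 0.80 down to 0.67 without WTsham 2 and WTsham 3. Iigp1 had 99.55, 688.5 and 328.3 CPM in WTsham and 34.35 to 93.06 CPM in the other libraries, so WTsham 1 was not far above KOCKD 3. The log2 summed level of the constitutive catalytic subunits had r of 0.04 with the mean of the 10, that of the endothelial markers 0.62, of the macrophage markers 0.77, of all leukocytes 0.86 and of the cardiomyocyte markers -0.75. Without WTsham 2 and WTsham 3 these were 0.32, 0.67, 0.58, 0.72 and -0.74. The fibroblast markers had 0.70 over 15 libraries and 0.46 without those 2. In the same order the dendritic cell markers had 0.73 and 0.53, and the adipocyte markers 0.20 and 0.67. Those sums were mostly Zbtb46, at a mean of 19.58 CPM, and Fabp4, at 555.5 CPM. Adipoq, Plin1 and Cidec averaged 1.124, 0.95 and 1.079 CPM, so these values describe Zbtb46 and Fabp4 rather than the cell types.

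Position and sequence were shared by some members. On the NCBIM37 build, 7 of the 10 genes lie on chromosome 17, from Tapbp at chr17:34052844-34066235 and H2-K1 at chr17:34132962-34137278 to H2-D1 at chr17:35399675-35404444. Psmb9 at chr17:34318932-34324709 on the minus strand, Tap1 at chr17:34324498-34334170, Psmb8 at chr17:34334666-34338399 and Tap2 at chr17:34340472-34353266 follow each other there. B2m lies on chromosome 2 at chr2:121973422-121978819, and Nlrc5 and Psmb10 lie on chromosome 8 at chr8:96996663-97051172 and chr8:108459628-108462292. The exons of Tap1 and Psmb9 overlap on opposite strands, those of Tapbp and Zbtb22 overlap on the same strand, and those of Tap2 and Psmb8 overlap annotated genes on the opposite strand, so with a strand option that was not given some reads could be shared. Of all windows of H2-D1 transcripts as long as the shorter sequencing read, 2.83% occurred in transcripts of other genes, H2-T23 and H2-Q7 among them, and in H2-K1, B2m, the TAP genes, Tapbp and the Psmb genes 0% did.

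Promoters are shown because the heavy chains are alike in a stretch of theirs and because Tap1 and Psmb9 start from a common stretch. RefSeq windows of 300 bases at gene starts on GRCm38.p6 were matched to 8 of the 10 genes, and those of Tap2 and Nlrc5 were not used here. Motifs were searched on both strands, and a match is a description only. The letters GGGGATTCC were in H2-K1 and H2-D1 and in 0.250% of all 32851 promoters. The letters GAANNGAAA were in H2-K1 and H2-D1 and in 7.52% of all, GAAANNGAA in B2m and in 8.56%, TTCNNNGAA in Psmb8 and in 8.30%, GGGANTTCC in none of the 8 and in 1.68%, and CCAAT in 6 of the 8, all but Psmb8 and Psmb10, and in 37.4%. The stretch of 100 bases of H2-K1 at chr17:34000379-34000478 on the minus strand and that of H2-D1 at chr17:35262903-35263002 on the plus strand had 95 bases in common and 5 different. Capitals mark GGGGATTCC and, as read on the strand opposite to the gene, GAANNGAAA.
H2-K1: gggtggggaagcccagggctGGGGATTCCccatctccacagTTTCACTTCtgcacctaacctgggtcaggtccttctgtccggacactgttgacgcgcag
H2-D1: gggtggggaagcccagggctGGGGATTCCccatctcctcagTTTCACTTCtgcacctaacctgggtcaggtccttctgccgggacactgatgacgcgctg

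In B2m, on the plus strand at chr2:122147437-122147736, the capitals mark GAAANNGAA.
B2m: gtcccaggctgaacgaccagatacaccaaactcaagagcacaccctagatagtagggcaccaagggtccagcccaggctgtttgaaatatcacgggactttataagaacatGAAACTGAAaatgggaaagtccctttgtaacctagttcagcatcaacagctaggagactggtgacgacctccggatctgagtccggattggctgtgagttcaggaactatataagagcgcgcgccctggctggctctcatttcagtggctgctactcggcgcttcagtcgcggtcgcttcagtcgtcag

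Tap1 and Psmb9 are read in opposite directions from a common stretch of 275 bases, given on the plus strand at chr17:34187306-34187580, the strand of Tap1. Capitals mark the CCAAT that lies in the windows of both genes.
Tap1 and Psmb9: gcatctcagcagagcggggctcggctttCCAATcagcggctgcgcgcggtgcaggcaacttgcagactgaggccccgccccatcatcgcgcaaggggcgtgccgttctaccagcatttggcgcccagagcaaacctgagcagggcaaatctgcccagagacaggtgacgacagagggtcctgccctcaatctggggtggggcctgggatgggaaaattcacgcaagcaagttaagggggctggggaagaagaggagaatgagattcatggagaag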

How the data were processed

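The authors trimmed reads with Trimmomatic, aligned them with HISAT2 and made the gene counts with HTSeq, and the deposited table holds these counts for 15 libraries. The genome build is given as mm9 in the methods and GRCm39 in the labels, and which was used is not known. The methods name Cufflinks for the FPKM values. In 17147 genes the deposited FPKM matched the counts scaled by library total and a fixed length per gene, within a relative tolerance of 1e-05. The FPKM levels and the subunit ratio are therefore the same counts rescaled, and not a separate measurement. From there, the counts were scaled by TMM, genes with low counts were dropped by filterByExpr (minimum count 10, minimum total 15), and all 15 libraries were fitted together with the quasi-likelihood method of edgeR. P-values were adjusted by Benjamini-Hochberg over 13021 genes, and standard errors were taken as the log2 fold change over the root of F. DESeq2 was run as an alternative. FPKM served for levels between genes and for the subunit ratio, which was tested by exact permutation. Named genes are the 10 class I genes in every comparison, Psmb5, Psmb6, Psmb7, Irf1, Psme1 and Psme2, in each other list up to 4 genes of smallest p with an adjusted p under 0.05, and genes from the 8 most like the mean of the 10. A gene that met these rules, and was taken out of its list, is not reported here. The class I genes and all lists were chosen with earlier results of these data known. Tools were R 4.3.3, edgeR 4.0.16, limma 3.58.1, DESeq2 1.42.0, Python 3.11.15, numpy 2.4.6, pandas 2.3.3, scipy 1.17.1 and matplotlib 3.10.9.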

Additional observations from a re-analysis of the deposited data

Results flagged for a closer look

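Nlrc5 was the class I gene whose response to the virus differed most between the genotypes. The log2 fold change of KOCKD+RNLS against KOCKD minus that of WTCKD+RNLS against WTCKD was 0.77 in edgeR (SE 0.519), with a Benjamini-Hochberg adjusted p of 0.463, so the difference was not shown.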

How the results depend on the processing

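With 3 libraries a group, the calls among the 10 class I genes depended on single libraries and on the fit, and the cause was not tested. In WTCKD against WTsham, 4 were called, 0 with only the compared libraries, 9 under the fold change and unadjusted p of the study, and 0 to 8 over the fits without 1 library. In WTCKD+RNLS against WTCKD, 0 were called and 3 under that rule of the study. In KOCKD+RNLS against KOCKD, 2 were called, 1 with DESeq2, 1 with the replicate number as a block, 0 with gene length offsets and 0 to 1 without 1 library. In WTCKD+RNLS against WTsham, 10 were called and 7 to 10 without 1 library, and 9 and 7 to 10 for any difference among the groups. In KOCKD against WTCKD the difference in the mean log2 ratio of immunoproteasome to constitutive subunits was 0.0049. It was -0.0421 with the mean log2 ratio of the 3 subunit pairs, and -0.0562 to 0.077 without 1 library. These log2 fold changes turned sign with gene length offsets: in WTCKD against WTsham Psmb5 -0.0086; in WTCKD+RNLS against WTCKD Psmb5 -0.000329 and Irf1 0.0144, Irf1 also at 0.001365 with no filter; in KOCKD+RNLS against KOCKD Psmb9 0.0457, Psmb10 0.212, Psme1 0.174 and Ryr2 -0.015. In KOCKD against WTCKD they were H2-D1 -0.0338, Tap2 -0.0205, Psmb6 -0.0617 and Tapbp -0.0286, Tapbp also at -7.71e-05 with RLE and -6.49e-05 with DESeq2. In WTCKD+RNLS against WTsham they were Psmb5 -0.00893 and Psmb7 -0.0252. In the difference between genotypes they were H2-D1 0.00988, B2m 0.276, Psmb8 0.0958 and Tap2 0.0657, Tap2 also at 0.001985 with only the compared libraries. Leaving out 1 library also turned signs, some of them in results named above, none of them called. In WTCKD against WTsham the range was Psme1 -0.17 to 0.113. In WTCKD+RNLS against WTCKD the ranges were Psmb8 -0.395 to 0.0244, Psmb10 -0.149 to 0.0138, Psmb5 -0.129 to 0.135, Psmb6 -0.119 to 0.12, Psmb7 -0.1795 to 0.0512, Psme2 -0.0189 to 0.1635 and Irf1 -0.101 to 0.0601. In KOCKD+RNLS against KOCKD they were Psmb10 -0.0574 to 0.00509 and Nlrc5 -0.0376 to 0.499. In KOCKD against WTCKD they were H2-D1 -0.048 to 0.175, Tap2 -0.0289 to 0.126, Tapbp -0.0422 to 0.04285, Psmb8 -0.0103 to 0.4195, Psmb9 -0.0724 to 0.027, Nlrc5 -0.385 to 0.15 and Psme1 -0.0522 to 0.00638. In WTCKD+RNLS against WTsham they were Psmb5 -0.0687 to 0.195 and Psmb7 -0.0777 to 0.153. In the difference they were H2-D1 -0.262 to 0.008425, B2m -0.253 to 0.102, Tap2 -0.105 to 0.101, Tapbp -0.0369 to 0.0644 and Psmb10 -0.0451 to 0.117. Over all alternative values, for the called counts and ratio 122 were labelled the same, 14 weaker, 3 stronger and 5 turned sign. For single genes and lists 3727 were labelled the same, 462 weaker, 86 stronger and 69 turned sign. A count was labelled the same when it stayed close to the main count, whichever genes were called, so 7 beside 10 is among these. A ratio was the same when its difference kept its sign. A single gene was the same when it kept its sign and was called in both fits or in neither.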
